A study of Mus musculus with 9 samples.

Results

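Epithelial cells carry a set of trypsin-like serine proteases on or near their surface, together with inhibitors that hold them in check. Matriptase, encoded by St14, is anchored by a transmembrane segment and works in a cascade with the lipid-anchored protease prostasin, encoded by Prss8. Their membrane-bound inhibitors HAI-1 and HAI-2, encoded by Spint1 and Spint2, carry Kunitz domains, which plug the active site of such proteases. In skin, gut and mammary epithelium this system takes part in barrier formation, in shedding or activation of surface proteins and in activation of growth factors, and an excess of matriptase over its inhibitors is known to promote tumours. The genes described here are 7 proteases (St14, Tmprss2, Tmprss4, Tmprss13, Prss8, Prss22 and Klk10) and the 2 inhibitors Spint1 and Spint2, which makes 9 of the 24594 genes in the count table. They are given by name, and the rule sets no threshold on a measured value, but they were chosen with earlier results of these data known.

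The libraries come from BG2 cells, a line of mammary epithelial cells taken from an endpoint tumour of an MMTV-Neu-IRES-Cre (MMTV-NIC) mouse, in which the MMTV promoter drives the oncogene Neu and Cre together in mammary epithelium. There were 3 groups of 3 technical replicates, all with this transgene. The control was the bulk population of wild-type BG2 cells, whose library names hold the letters NTC. Clone 1 and clone 2 were Sox10 CRISPR knockout lines, each grown from 1 clone of a population edited with guides against exon 3 of the Sox10 reading frame. No age, drug or time point is given. Within a clone, the knockout and the descent from 1 cell cannot be told apart, and since the replicates are technical, a p-value here reflects the variation of libraries alone.

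Libraries held 65805296 to 83282841 counts. A total of 3 counts over a group, used as the floor for a gene at 0, equalled 0.0134 CPM (counts relative to TMM-scaled library size) for the control, 0.0142 for clone 1 and 0.0127 for clone 2. Sox10 itself gave 16660, 21437 and 26038 counts in the control libraries, 0, 6 and 0 in those of clone 1, and 0, 2 and 2 in those of clone 2. The 6 markers of epithelium (Epcam, Krt8, Krt18, Cdh1, Cldn3 and Cldn4) summed to 6002 to 7199 CPM in the control libraries, 1109 to 1260 CPM in clone 1 and 1362 to 1543 CPM in clone 2, with Cldn3 at 0 counts in clone 1 and Epcam at 0 counts in clone 2. The 8 fibroblast markers summed to 30.3 to 35.9, 217 to 223 and 136 to 150.1 CPM in the same order, and Lum and Thy1 were at 0 counts in all 9 libraries. Pdgfra, with means of 7.83, 172 and 107 CPM, made up most of the sum in each clone. The 6 immune markers stayed at or below 0.784 CPM in sum, with Cd3e at 0 counts throughout. The 5 endothelial markers summed to at most 0.108 CPM in control libraries, 15.3 to 17.3 in those of clone 1, where Kdr made up 16.2 ± 0.947 CPM, and 0.504 to 0.953 in those of clone 2. The 4 adipocyte markers summed to 0.554 to 0.729, 3.44 to 4.37 and 7.80 to 9.79 CPM, with Cidec at 0 counts throughout. Fabp4 made up most of these sums, with means of 0.603, 3.88 and 8.63 CPM. Adipoq went the other way, from 6 counts to 0 in both clones, as did Plin1, from 6 to 2 and 0. The part of these shifts in the results below was not tested, and in bulk RNA fewer cells of a type and less RNA per cell cannot be told apart.

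The 7 proteases share the stretch around the serine that attacks the substrate. It is shown here because it is the mark of the family and because it shows how the coding bases differ within this stretch. These are 30 coding bases from GENCODE M21 transcripts (GRCm38), with the codon of the active-site serine in capitals.

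St14: tgccagggtgacTCTggtggccccttgtca

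Prss8: tgccagggtgacTCTgggggcccactctct

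Prss22: tgtctgggcgacTCTgggggtcccctgatg

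Klk10: tgccagagtgacTCCggtggccccctggtg

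Tmprss2: tgccagggagacAGTggagggccgctggtt

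Tmprss4: tgccagggtgacAGTggtgggcctttgatg

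Tmprss13: tgccagggagacAGTggaggacctctcgtc

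The serine codon is number 805 of the St14 reading frame, 238 of Prss8, 242 of Prss22, 231 of Klk10, 439 of Tmprss2, 385 of Tmprss4 and 492 of Tmprss13. Of the 30 bases, Prss8 shares 25 with St14, Klk10 24, Tmprss4 23, Prss22 21, Tmprss2 20 and Tmprss13 19. The 3 TMPRSS genes use AGT for the serine, where St14, Prss8 and Prss22 use TCT and Klk10 uses TCC. No run of 50 bases was shared between any of the 9 genes, so reads of that length cannot be split among them. Prss8 and Tmprss4 overlap a gene on the opposite strand: Kat8 covers 3.85% of the 50-base runs of Prss8, and Gm17099 covers 11.9% of those of Tmprss4. The libraries are stranded by their labels, but the sources used here do not give the strand setting of the counting, so the source of reads in these stretches is uncertain.

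All 8 members that could be tested fell in both clones. Tmprss13 was the member too low to test. In edgeR, 38.6% of all 13928 genes tested were lower in clone 1 and 37.1% in clone 2, and 29.4% were lower in both. The share that fell by significantly more than 2-fold (glmTreat) was 13.1% in clone 1, 12.2% in clone 2 and 9.54% in both, and all 8 members were in each of these classes. Since the members were chosen with earlier results of these data known, these shares describe the set and do not test it. No member was higher, while 37.9% of all genes were higher in clone 1 and 37.3% in clone 2. The members' median log2 fold change was -9.18 in clone 1 and -8.59 in clone 2, or -7.75 and -7.59 with genes at 0 counts set to their bound, beside 0.00 over all genes in both clones. The size of the fall parted the members into those near the counting floor (Spint1, Prss22, Tmprss2 and Tmprss4) and those that kept a measurable level (St14, Spint2, Klk10 and Prss8).

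**Figure D1:**
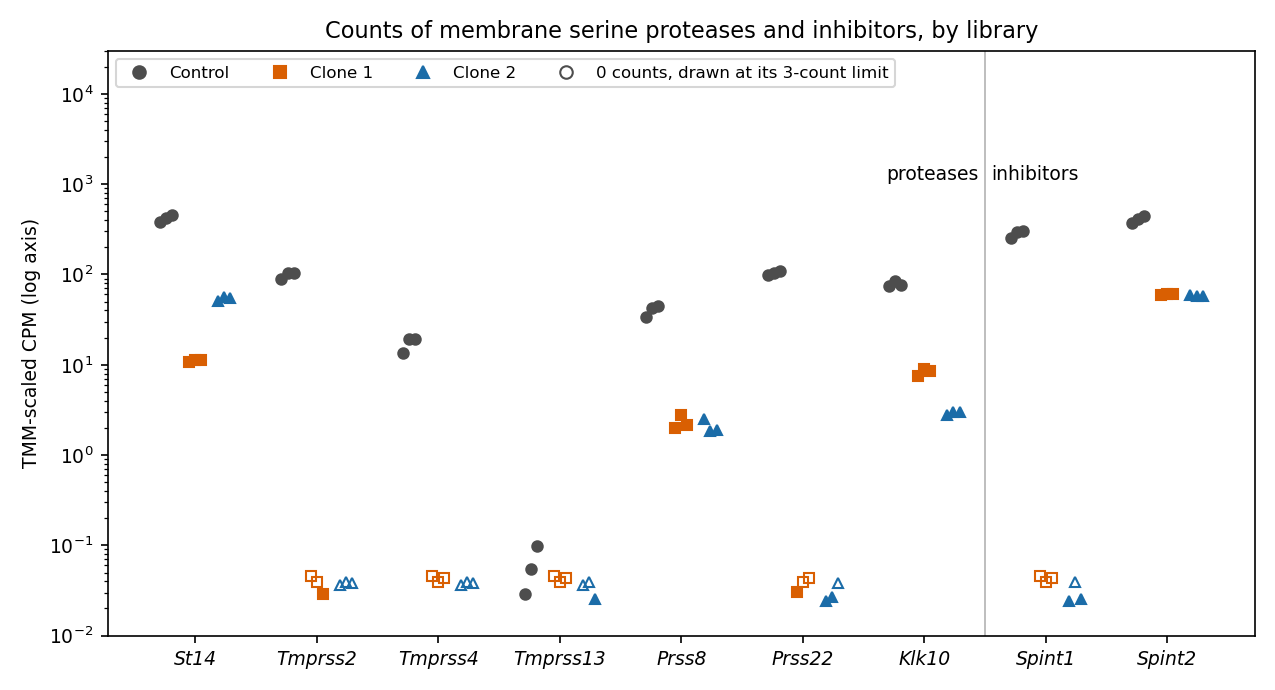
TMM-scaled CPM (log axis) of the 9 genes in each of the 9 libraries; each point is 1 library, and an open symbol marks a library with 0 counts, drawn at the value that 3 counts would have there. St14, Prss8, Klk10 and Spint2 stay above 1 CPM in every clone library, while Spint1, Prss22, Tmprss2 and Tmprss4 drop to 2 counts or fewer per library.

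St14 lies on chromosome 9 from 31089402 to 31131853 on the minus strand (GRCm38). It had 26278, 31564 and 36583 counts in the control libraries, 711, 864 and 787 in clone 1, and 4260, 4270 and 4320 in clone 2. No group overlapped another, and clone 2 lay between the control and clone 1. In CPM these were means of 419 ± 36.8 for the control, 11.1 ± 0.305 for clone 1 and 54.3 ± 2.81 for clone 2 (SD over 3 libraries). St14 had fallen 37.8-fold in clone 1 (log2 fold change -5.24 ± 0.08 SE, adjusted p = 5.57e-13, edgeR) and 7.78-fold in clone 2 (-2.95 ± 0.07, adjusted p = 1.33e-11). St14 RNA thus stayed far above the counting floor in both clones.

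Of the other transmembrane proteases, Tmprss2 cleaves viral glycoproteins and is under androgen control in the prostate. It lies on chromosome 16 from 97564682 to 97611195 on the minus strand and gave 6237, 7674 and 8477 counts in the control libraries. In clone 1 it gave 0, 0 and 2 counts and in clone 2 none. The control mean was 99.5 ± 8.19 CPM (SD, n = 3), which was 10585-fold (95% counting interval 2930 to 87413) higher than clone 1 and at least 7896-fold higher than clone 2. Clone 1 thus held 2 counts in 1 library, and the 2 clones could not be ordered.

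Tmprss4, a related protease expressed in epithelial tumours, lies on chromosome 9 from 45172726 to 45204092 on the minus strand. Its counts were 926, 1417 and 1568 in the control libraries and 0 in all 6 clone libraries. The control mean of 17.3 ± 3.40 CPM (SD, n = 3) was at least 1233-fold above clone 1 and at least 1379-fold above clone 2. Tmprss4 was 1 of 60 genes with at least 5 CPM in the control and 0 counts in every clone library, which is 0.604% of the 9939 genes at that control level.

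Tmprss13, a mosaic transmembrane protease of skin and gut, lies on the same chromosome from 45319100 to 45347581 on the plus strand. It gave 2, 4 and 8 counts in the control libraries, 0 in each of clone 1, and 0, 0 and 2 in clone 2. It was thus barely detected in the control and did not pass the filter on low counts. The control mean of 0.0606 CPM was at least 4.41-fold above clone 1 and 7.41-fold (95% counting interval 1.70 to 67.1) above clone 2.

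Prss8, the partner of matriptase, lies on chromosome 7 from 127925716 to 127930104 on the minus strand. It had 2336, 3147 and 3611 counts in the control libraries, 133, 212 and 149 in clone 1, and 208, 139 and 147 in clone 2. Ranges of the clones overlapped each other and lay far below the control. The means were 40.3 ± 5.78, 2.31 ± 0.412 and 2.07 ± 0.369 CPM (SD, n = 3 each). Prss8 fell 17.4-fold in clone 1 (log2 fold change -4.12 ± 0.17 SE, adjusted p = 1.02e-09) and 19.5-fold in clone 2 (-4.28 ± 0.17, adjusted p = 8.17e-10).

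Prss22, a tryptase of airway and other epithelia, lies on chromosome 17 from 23993534 to 23998100 on the minus strand. Its counts were 6843, 7589 and 8812 in the control libraries, 2, 0 and 0 in clone 1, and 2, 2 and 0 in clone 2. From 103 ± 5.08 CPM in the control (SD, n = 3) it fell 10990-fold in clone 1 (95% counting interval 3042 to 90754) and 6149-fold in clone 2 (2401 to 22569). Only 3 of the 6 clone libraries held any count of it.

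Klk10, a secreted member of the kallikrein family, lies on chromosome 7 from 43781035 to 43785410 on the plus strand. It had 5182, 6211 and 6172 counts in the control libraries, 497, 676 and 593 in clone 1, and 234, 227 and 232 in clone 2. Here the order of the clones was the opposite of that of St14, with clone 2 lowest and no overlap between groups. The means were 78.4 ± 4.90, 8.30 ± 0.688 and 2.93 ± 0.104 CPM (SD, n = 3 each), a 9.41-fold fall in clone 1 (log2 fold change -3.24 ± 0.08 SE, adjusted p = 1.71e-11) and a 26.8-fold fall in clone 2 (-4.74 ± 0.09, adjusted p = 2.04e-12).

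The 2 inhibitors differed most in how much was left. Spint1, which encodes HAI-1, lies on chromosome 2 from 119237362 to 119249527 on the plus strand. It gave 17356, 21942 and 24523 counts in the control libraries, 0 in each library of clone 1, and 2, 0 and 2 in clone 2. Its control mean of 283 ± 28.5 CPM (SD, n = 3) was at least 20117-fold above clone 1 and 16883-fold (95% counting interval 6593 to 61964) above clone 2.

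Spint2, which encodes HAI-2, lies on chromosome 7 from 29256323 to 29281912 on the minus strand. It had 25647, 30119 and 35956 counts in the control libraries, 3879, 4620 and 4263 in clone 1, and 4945, 4387 and 4530 in clone 2. Its means were 407 ± 36.9, 60.2 ± 1.20 and 58.4 ± 0.806 CPM (SD, n = 3 each), a fall of 6.80-fold in clone 1 (log2 fold change -2.76 ± 0.06 SE, adjusted p = 1.16e-11) and 7.0-fold in clone 2 (-2.80 ± 0.06, adjusted p = 1.06e-11). In both clones Spint2 thus kept at least 3879 counts per library, and Spint1 had at most 2.

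**Figure D2:**
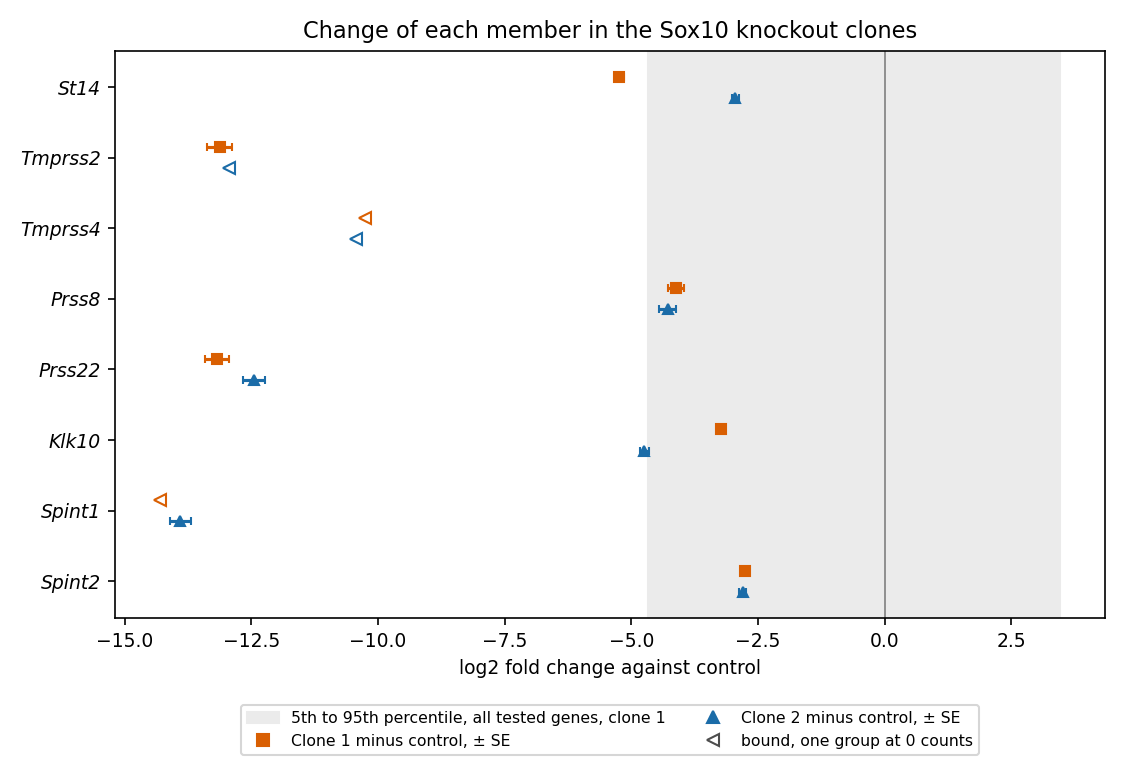
Log2 fold change of the 8 tested members in clone 1 (squares) and clone 2 (triangles) against the control, with SE bars; open arrowheads are bounds for a group with 0 counts, and the grey band runs from the 5th to the 95th percentile of all 13928 genes in clone 1 (-4.68 to 3.46). Spint1, Prss22, Tmprss2 and Tmprss4 lie beyond -10 in both clones, and St14, Prss8, Klk10 and Spint2 lie between -5.24 and -2.76.

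Since the 2 inhibitor genes had such different residual levels, the 250 bases before their RefSeq start sites (GRCm38.p6) are printed for comparison. Capitals mark CAGGTG, the E-box read by ZEB and SNAI repressors, searched on both strands.

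Spint1, chr2:119237110-119237359, plus strand: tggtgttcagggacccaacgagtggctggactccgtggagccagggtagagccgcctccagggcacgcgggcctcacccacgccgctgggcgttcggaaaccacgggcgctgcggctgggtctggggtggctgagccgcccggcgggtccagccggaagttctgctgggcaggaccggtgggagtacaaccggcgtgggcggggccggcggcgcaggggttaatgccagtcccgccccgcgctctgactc

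Spint2, chr7:29281978-29282227, minus strand: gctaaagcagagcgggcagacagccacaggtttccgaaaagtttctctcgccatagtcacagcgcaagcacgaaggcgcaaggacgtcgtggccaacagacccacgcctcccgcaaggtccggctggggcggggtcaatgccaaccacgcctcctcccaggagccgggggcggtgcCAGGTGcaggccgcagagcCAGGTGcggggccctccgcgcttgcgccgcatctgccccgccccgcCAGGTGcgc

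The Spint2 window holds CAGGTG 3 times, at -74, -55 and -9 bases from the start, and the Spint1 window holds none. Of 32851 RefSeq promoters of 300 bases (250 before the start and 50 after it), 20.2% hold CAGGTG at least once and 0.365% hold it at least 3 times. Over these 300 bases, which run 50 bases past the printed stretch, both promoters are rich in CpG, with 28 in Spint1 and 26 in Spint2 against a median of 7 over all promoters. RefSeq windows were matched for 4 of the 9 members, the others being Tmprss2, with 13 CpG, and Klk10, with 2. None of the 4 held the Grainyhead motifs AACCGGTT (in 0.146% of all promoters) or AACCNGNTT (2.31%), or the Sox cores AACAAT (10.7%) or ACAAAG (18.7%). A motif match describes letters only.

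Levels were set between genes as CPM per kb of exon, with the union of all annotated exons as the length. In the control, Spint1 stood at 102 ± 10.3, Spint2 at 89.4 ± 8.11 and Prss22 at 78.1 ± 3.84 CPM per kb, followed by Klk10 at 57.1 ± 3.57 and St14 at 54.9 ± 4.82, then by Prss8 at 21.8 ± 3.12, Tmprss2 at 13.6 ± 1.12 and Tmprss4 at 6.68 ± 1.31 (SD, n = 3 each). The ranges of the libraries overlapped between Spint1 and Spint2, between Spint2 and Prss22, and between Klk10 and St14. The order depends on the length used: per kb of the longest protein-coding transcript, Spint2 stood at 294, St14 at 129, Spint1 at 122 and Tmprss2 at 31.5. In clone 1, Spint2 had the highest of these levels, 13.2 ± 0.262 CPM per kb, ahead of Klk10 at 6.05 ± 0.501 and St14 at 1.46 ± 0.0399. In clone 2 the order was Spint2 at 12.8 ± 0.177, St14 at 7.11 ± 0.368 and Klk10 at 2.13 ± 0.0754, with Prss8 at 1.12 ± 0.199.

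Summed per kb of exon union, the 7 proteases stood at 232 ± 15.4 in the control and fell to 8.76 ± 0.719 in clone 1 and 10.4 ± 0.251 in clone 2. The 2 inhibitors went from 192 ± 18.0 to 13.2 ± 0.262 and 12.8 ± 0.179. The ratio of the sums was 1.21 ± 0.0376 in the control, 0.663 ± 0.0449 in clone 1 and 0.809 ± 0.0296 in clone 2, with no overlap between groups. With the longest protein-coding transcripts it was 0.781 ± 0.0200, 0.246 ± 0.0141 and 0.472 ± 0.0235, so it was lower in both clones on either length, while its position relative to 1 in the control was not the same. This ratio counts all 7 proteases: Prss22 and Klk10 held 78.1 and 57.1 of the control sum, and Klk10 held 6.05 of the clone 1 sum. It does not give the balance of St14 and Prss8 alone with the inhibitors, and that ratio was not computed. In the control, St14 and Prss8 stood at 54.9 and 21.8 CPM per kb beside the inhibitor sum of 192. In clone 1 they stood at 1.46 and 1.25 beside 13.2, and in clone 2 at 7.11 and 1.12 beside 12.8. Relative to that sum, St14 and Prss8 together were thus lower in clone 1 and higher in clone 2 than in the control. The makeup also differed. St14 held 23.6 ± 0.645% of the protease sum in the control, 16.7 ± 0.953% in clone 1 and 68.5 ± 1.96% in clone 2, and Spint2 went from 46.6 ± 1.01% of the inhibitor sum in the control to 100% in clone 1 and 99.95 ± 0.0403% in clone 2 (SD, n = 3 each).

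A ratio of 2 genes within a library is free of the scaling between libraries. The log2 ratio of St14 to Spint2, each per kb, was -0.71, -0.68 and -0.72 in the control libraries, -3.19, -3.16 and -3.18 in clone 1, and -0.96, -0.78 and -0.81 in clone 2. Clone 1 minus control was -2.48, clone 2 minus control was -0.15, and clone 2 minus clone 1 was 2.33. The groups did not overlap in any of these, and each gave p = 0.1 in a 2-sided exact permutation test, the smallest that 3 against 3 allows. The fall of St14 in clone 2 was thus close in size to that of Spint2, and in clone 1 it was larger.

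The log2 ratio of Prss8 to Spint2 was -2.16, -1.96 and -2.02 in the control libraries, -3.57, -3.15 and -3.54 in clone 1, and -3.27, -3.68 and -3.65 in clone 2. Clone 1 minus control was -1.37 and clone 2 minus control was -1.49, each with exact p = 0.1 and no overlap. Between the clones it differed by -0.12 with overlapping ranges (2-sided exact permutation p = 0.5). The ratio of St14 to Spint1 is not given as a value, since Spint1 had too few counts in the clones. Its direction was the opposite of that of the ratio to Spint2. St14 fell 37.8-fold in clone 1 and 7.78-fold in clone 2, and Spint1 at least 20117-fold and 16883-fold. Relative to Spint1, St14 was thus higher in both clones than in the control.

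**Figure D3:**
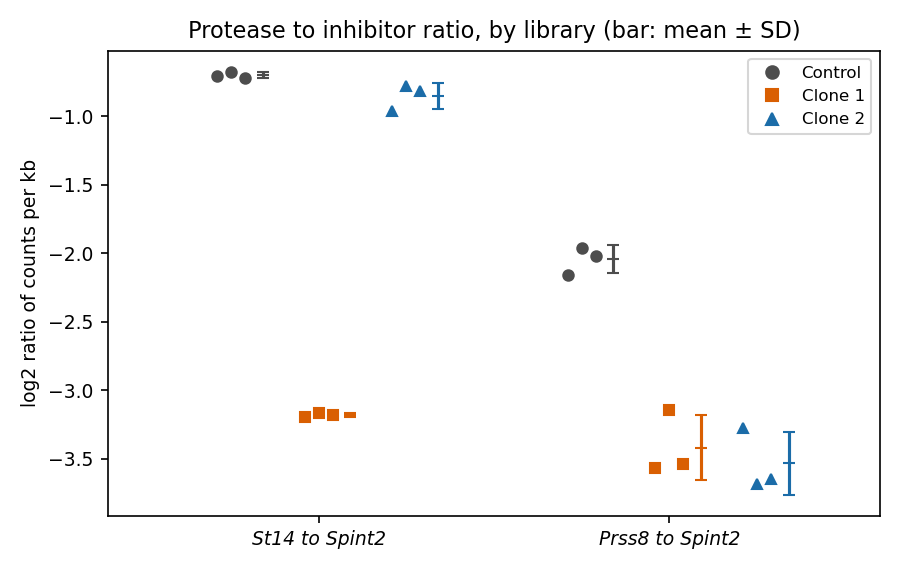
Log2 ratio of St14 to Spint2 and of Prss8 to Spint2 (counts per kb of exon) in each library, with the mean and SD of each group as a bar beside the points. For St14 to Spint2 clone 2 (-0.96 to -0.78) lies near the control and clone 1 near -3.18, while for Prss8 to Spint2 the 2 clones overlap.

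Clone 2 was also compared with clone 1 directly. Of all genes 27.5% were lower and 30.1% higher in clone 2. By significantly more than 2-fold, 535 of the 13928 genes (3.84%) were lower and 651 were higher. Of the 8 members tested, St14 was higher in clone 2 by 4.86-fold (log2 difference 2.28 ± 0.07 SE, adjusted p = 1.02e-09), and Klk10 was lower by 2.85-fold (-1.51 ± 0.08, adjusted p = 8.31e-08). No significant difference was found for Spint2 (-0.04 ± 0.06, adjusted p = 0.581) or Prss8 (-0.16 ± 0.17, adjusted p = 0.457). The other 4 had at most 4 counts over 3 libraries in either clone, too few to compare. Without replicate 1 of every group, a choice made after seeing the data, Prss8 was lower in clone 2 as well (-0.41, adjusted p = 0.0147).

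Other membrane-anchored serine proteases were sparse. Of 23 listed, 7 were tested. In clone 1, 3 were lower and 2 higher, beside 38.6% and 37.9% of all genes. In clone 2, 4 were lower and 2 higher, beside 37.1% and 37.3% of all genes. Tmprss11e, a protease of stratified epithelium, was the only one of the 23 with at least 5 CPM in any group. It fell from a control mean of 5.89 ± 1.21 CPM (SD, n = 3) to 0 counts in both clones, at least 413-fold in clone 1 and at least 462-fold in clone 2. The list had no common direction: its median log2 fold change with bounds was 1.03 in clone 1 and -2.30 in clone 2. The clone 2 median is the bound of 1 barely detected gene, Tmprss11f. It had 14 counts in the control, 33 in clone 1 and 0 in clone 2.

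All 5 testable kallikreins besides Klk10, of 12 listed, fell in both clones, as did 29.4% of all genes tested. Klk8, a kallikrein of epidermis and brain, went from 65.5 ± 5.66 CPM to 5.67 ± 0.803 in clone 1 and 1.15 ± 0.106 in clone 2, or 11.6-fold and 57.1-fold lower. Klk6 went from 38.0 ± 3.70 to 1.41 ± 0.343 and 0.0347 ± 0.0300 CPM (SD, n = 3 each), or 26.9-fold and 1131-fold (95% counting interval 574 to 2620) lower. Both were lower in clone 2 than in clone 1, by log2 differences of -2.30 ± 0.13 for Klk8 and -5.32 ± 0.40 for Klk6 (adjusted p = 8.43e-08 and 9.03e-07), the direction that Klk10 showed. The Klk genes lie side by side on chromosome 7, and 21.7% of the 50-base runs of Klk8 are shared with 2310002F09Rik on the opposite strand.

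The same stretch of chromosome 7 held another group of kallikreins that moved the other way; it was chosen after its values were seen. The Klk1b genes, a family of closely related glandular kallikreins, lie 164 to 341 kb from the start of Klk10. Of 10 in the count table, 7 were tested; all 7 were higher in clone 1 and 6 of them in clone 2, Klk1b11 being the exception. Together the 10 had 30 counts in the control, 2170 in clone 1 and 506 in clone 2. Klk1b26 rose from 0 control counts to 2.83 CPM (clone 1) and 0.611 CPM (clone 2), at least 212-fold and at least 45.0-fold. Klk1b21 rose from 2 control counts to 2.25 CPM (clone 1) and 0.144 CPM (clone 2). Between 12.8% and 29.1% of the 50-base runs of the 7 genes are shared with other genes, so the split of reads among them is uncertain. From Klk13 to Klk6, 6 of 6 tested kallikreins including Klk10 were lower in both clones, with 41308 counts in the control, 3362 in clone 1 and 1013 in clone 2 over the 8 genes of that stretch.

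**Figure D4:**
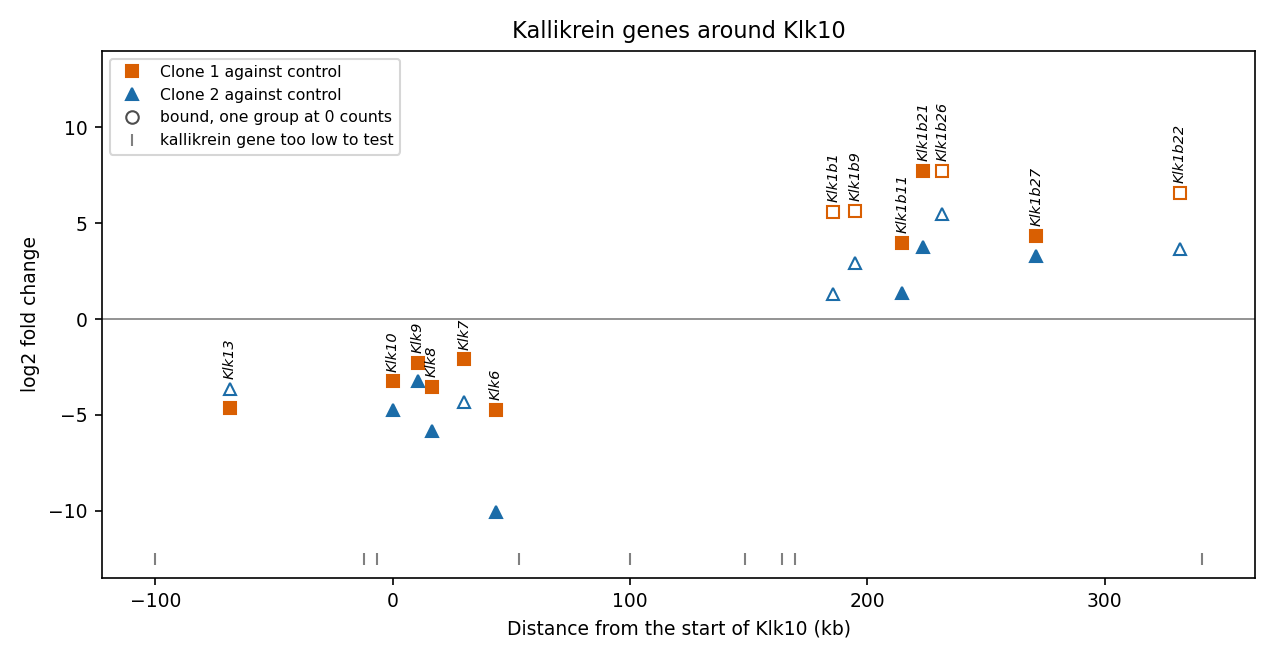
Log2 fold change of kallikrein genes in clone 1 (squares) and clone 2 (triangles) against the control by distance in kb from the start of Klk10; open symbols are bounds for a group at 0 counts and ticks mark genes too low to test. Genes from Klk13 to Klk6 lie below 0 and the Klk1b genes above 0.

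Other protease inhibitors moved in both directions. Of 16 listed, 8 were tested. In clone 1, 4 were lower and 3 higher, near the shares of all genes (38.6% and 37.9%). In clone 2, 3 were lower and 3 higher, again near the shares of all genes (37.1% and 37.3%). Among the inhibitors that fell, Serpinb5, the epithelial serpin maspin, went from 31.6 ± 2.29 CPM to 0.284 ± 0.0818 in clone 1 and 0.166 ± 0.0628 in clone 2. Serpine2, which encodes an inhibitor of thrombin and urokinase, stood at 17.6 ± 0.183 CPM in the control, 2 counts in clone 1 and 4.14 ± 0.487 CPM in clone 2. Wfdc2, which encodes a protein of the whey acidic protein family, went from 643 ± 57.8 CPM to 0.0626 ± 0.0262 in clone 1 and 239 ± 5.92 in clone 2.

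Several inhibitors rose. Tfpi, a Kunitz inhibitor of the tissue factor pathway, rose from 0.365 ± 0.132 CPM to 18.3 ± 2.65 in clone 1 and 28.0 ± 4.81 in clone 2 (log2 fold changes 5.64 ± 0.22 and 6.25 ± 0.22 SE, adjusted p = 8.18e-10 and 3.55e-10). Slpi, a secreted inhibitor of leukocyte elastase, rose from 545 ± 44.5 to 1166 ± 30.9 and 1141 ± 29.9 CPM, 2.13-fold and 2.08-fold. Aplp2, which also has a Kunitz domain, rose 1.23-fold and 1.62-fold, and App, with such a domain in some isoforms, had log2 fold changes of 0.05 and -0.06 (adjusted p = 0.459 and 0.415).

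Most substrates and receptors of the system fell. Of 18 listed, 14 were tested. In clone 1, 11 were lower and 2 higher, beside 38.6% and 37.9% of all genes. In clone 2, 10 were lower and 3 higher, beside 37.1% and 37.3% of all genes. The list's median log2 fold change with bounds was -3.35 in clone 1 and -2.61 in clone 2. F2rl1, the protease-activated receptor cut by matriptase, went from 5.59 ± 0.278 CPM to 0 counts in all 6 clone libraries. Scnn1a, the alpha subunit of the sodium channel that these proteases activate, went from 174 ± 31.9 CPM to 0.972 ± 0.0649 in clone 1 and 1.58 ± 0.126 in clone 2. Scnn1g, the gamma subunit of that channel, was under 5 CPM and went the other way, with 34 counts in the control, 223 in clone 1 (6.94-fold higher, adjusted p = 6.37e-06) and 95 in clone 2 (2.64-fold higher, adjusted p = 0.00233). F2r, the thrombin receptor, went from 49.5 ± 3.09 to 5.08 ± 0.316 and 3.34 ± 0.0718 CPM (SD, n = 3 each).

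Genes of surface proteins that these proteases cut, or of their partners, fell too. Epcam dropped from 659.5 ± 10.9 CPM to 7 counts over clone 1 and 0 over clone 2, and it is also 1 of the epithelial markers above. Cldn7, its claudin partner, went from 236 ± 14 CPM to 0.0430 ± 0.0157 and 0.00883 ± 0.0153. Dsg2, a desmosomal cadherin, went from 62.6 ± 2.19 CPM to 0 counts in both clones. Cdcp1 had 175 ± 1.95 CPM in the control, 0 counts in clone 1 and 7.63 ± 0.243 CPM in clone 2.

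Growth factor and plasminogen activator genes of at least 5 CPM changed as follows. Met, the receptor of hepatocyte growth factor, fell 3.08-fold in clone 1 and 2.14-fold in clone 2. Plau, urokinase, fell 3.08-fold and 2.53-fold, and its receptor gene Plaur fell 2.52-fold and 2.11-fold. Pdgfc rose 1.33-fold and 1.18-fold. Of the growth factor genes at low counts, Hgfac, a protease that activates hepatocyte growth factor, had 34 counts in the control, 0 in clone 1 (at least 10.7-fold lower, adjusted p = 0.00796) and 29 in clone 2. Pdgfd, with 52, 1 and 0 counts, and Hgf, with 21, 4 and 0, were too low to test. Mst1, on the same list, went the other way, with 16, 26 and 63 counts. It was 3.72-fold higher in clone 2 (adjusted p = 0.0212, edgeR) and not significantly changed in clone 1 (adjusted p = 0.36, edgeR).

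**Figure D5:**
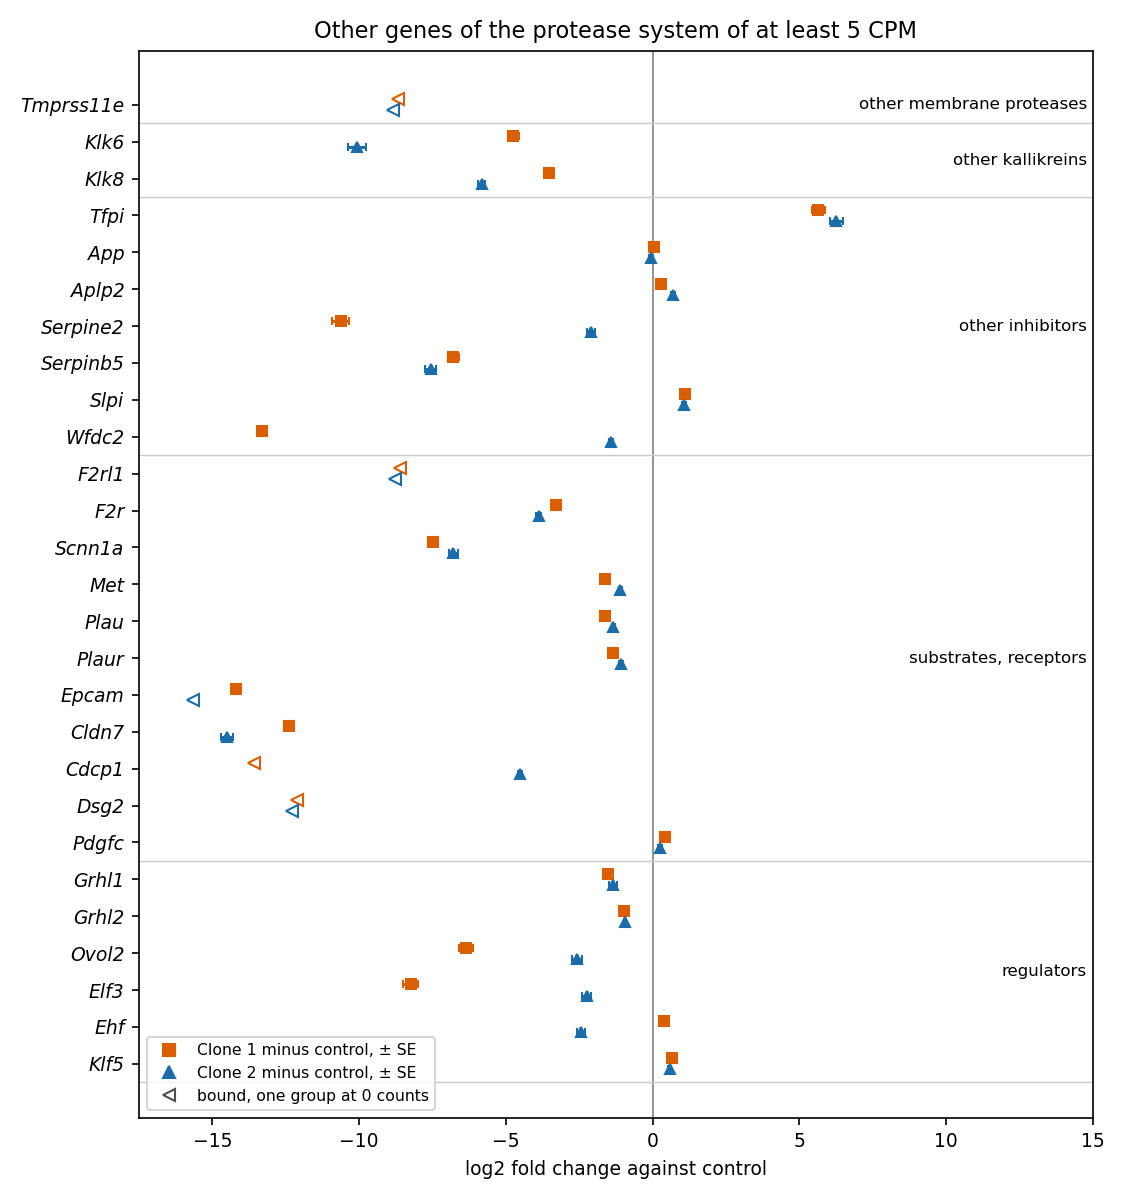
Log2 fold change against the control of every gene of the 5 other lists that reached 5 CPM in a group, in clone 1 (squares) and clone 2 (triangles), with SE bars; open arrowheads are bounds for a group at 0 counts. Kallikreins and most substrates lie left of 0, and Tfpi, Slpi and Klf5 lie right of 0 in both clones.

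Of the 8 regulators of epithelial genes on the list, 6 were lower and 2 higher in clone 1, and 7 were lower and 1 higher in clone 2. The shares of all genes were 38.6% lower and 37.9% higher in clone 1, and 37.1% and 37.3% in clone 2. Grhl2, a Grainyhead factor that activates epithelial genes, fell 1.96-fold and 1.92-fold, from 125 ± 2.64 CPM to 63.8 ± 1.73 in clone 1 and 65.1 ± 2.51 in clone 2 (log2 fold changes -0.97 and -0.94, ± 0.05 SE each). Grhl1 fell 2.89-fold and 2.57-fold. Ovol2, a repressor of mesenchymal genes, fell 84.0-fold in clone 1 and 6.03-fold in clone 2, and Elf3, an epithelial Ets factor, fell 312-fold and 4.73-fold. Both were higher in clone 2 than in clone 1, by log2 differences of 3.78 ± 0.26 and 6.0 ± 0.27 (adjusted p = 4.62e-07 and 1.70e-08), the direction that St14 showed. Of the 8 regulators, 2 were higher and 1 lower in clone 2 than in clone 1, beside 30.1% and 27.5% of all genes. A link of these factors to St14 was not tested. Ehf, another Ets factor, moved in opposite directions, 1.30-fold higher in clone 1 and 5.38-fold lower in clone 2, and was lower in clone 2 than in clone 1 by a log2 difference of -2.82 ± 0.13 (adjusted p = 2.04e-08). Klf5 rose 1.597-fold and 1.51-fold.

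The genes next to the members on their chromosomes did not share 1 direction. Of 16 distinct nearest tested genes, 9 were lower and 4 higher in both clones, with median log2 fold changes of -1.0 and -0.85. Over all genes tested, 29.4% were lower in both clones and the median log2 fold change was 0.00 in each. Beside St14, Zbtb44 rose by 0.53 and 0.48 on the log2 scale and Aplp2 by 0.30 and 0.70. Beside Tmprss2, Ripk4, an epithelial kinase, went from 96.3 CPM to 0 counts in both clones, and beside Prss22, the protease gene Prss27 went from 3.35 CPM to 0.0101 and 0.172 CPM. Both neighbours of Spint1, Ppp1r14d and Rhov, were under 1 CPM in the control and at 0 counts in clone 1. Those of Spint2 moved apart, 2200002D01Rik from 66.7 to 38.8 and 37.9 CPM and Dpf1 from 0.548 to 2.76 and 3.47 CPM. Median log2 fold changes of the chromosomes that carry members ran from -0.43 on chromosome 7 (clone 1) to 0.47 on chromosome 16 (clone 2), small beside the members' changes.

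The genes closest in pattern were found by the root mean square difference of log2(CPM + 0.1), centred on the control mean, over the 6 clone libraries, among 9716 genes with at least 5 CPM in the control. Nearest to St14 were Tjp3, Lpin3 and Lamb3, with differences of 0.249 to 0.326; Lamb3, a laminin chain, stood at 236 CPM in the control, 8.36 in clone 1 and 35.0 in clone 2. Nearest to Prss8 were Ccser1, Pkp3 and Dusp18 (0.279 to 0.353), and nearest to Spint2 were Tmem86a, Pitpnc1 and Fbxo36 (0.141 to 0.175). Nearest to Spint1 were Alox12e, Sox10 itself and the claudin gene Cldn4 (0.388 to 0.456), all near the counting floor in both clones. For genes at that floor the measure depends almost wholly on the control level (283 CPM for Spint1 and 284 CPM for Sox10), so it tells nothing of a likeness within the clones. With a pseudocount of 1, Lamb3 and Sox10 were the nearest genes found again, and the other 10 were different.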

How the data were processed

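Polyadenylated RNA of 9 libraries was measured by stranded RNA sequencing. The deposited values are raw counts per gene, made by the authors with fastp and Subread on mm10/GRCm38, per the submitters' processing notes, which also name DESeq2; versions, annotation and strand setting are not given in these sources. Rows without a symbol (at most 0.202% of a library) stayed in the library totals under their identifiers. Libraries were grouped by the labels.

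Counts were fitted in edgeR 4.0.16 (R 4.3.3): filterByExpr with a minimum count of 10, TMM, quasi-likelihood test with 1 factor of 3 groups over all 9 libraries, 2-sided, Benjamini-Hochberg adjusted over 13928 genes and called under 0.05. SE is the absolute log2 fold change over the square root of F. Folds against 0 counts use a floor of 3 counts over the group and are bounds; groups of 1 to 9 counts carry exact 95% binomial counting intervals, which cover counting error only. Of values from 1 to 10, 74.7% were even (50.0% of those from 1000 to 2000), so a count of 2 may be 1 fragment, and these intervals are then too narrow. On simulated counts with 200 changed genes the fit was tested and recovered the changes. In the data 5371 genes were called lower and 5282 higher in clone 1, and recovery with so many changed genes was not tested. Gene lengths and positions come from GENCODE M21, promoters from RefSeq.

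Named were all 9 members, list genes of at least 5 CPM in a group, the nearest tested gene on each side of a member, and the 3 genes nearest in pattern to St14, Prss8, Spint1 and Spint2. The members and lists were chosen with earlier results of these data known. Alternatives were RLE and total-count scaling, DESeq2 1.42.0, no filter, a minimum count of 50, only the 2 groups compared, glmTreat at a log2 fold change of 1, a replicate block, leaving out each library, other gene lengths and another pseudocount.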

Additional observations from a re-analysis of the deposited data

Results flagged for a closer look

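St14 and Klk10 differed between the knockout clones in the direct comparison, each against the same control. St14 was higher in clone 2 than in clone 1 by a log2 difference of 2.28 (54.3 against 11.1 CPM, adjusted p = 1.02e-09 in edgeR), in 3 of 3 libraries against 3. Klk10 differed by -1.51 on the log2 scale, clone 2 minus clone 1 (2.93 against 8.30 CPM, adjusted p = 8.31e-08), with no overlap between libraries.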

How the results depend on the processing

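In each clone against the control, 8 members were lower and 0 higher under every scaling, filter, tool, block and leave-one-out fit run, except that with no filter Tmprss13 was lower in clone 1 too, making 9. Control replicate 1 was the lowest control library for all 9 members. Between the clones, 1 member was higher and 1 lower. Leaving out libraries gave 1 to 2 higher and 1 to 2 lower. Spint1, at 4 counts in clone 2 and 0 in clone 1, passed as higher without control replicate 1 (adjusted p = 0.0448) and without clone 2 replicate 2 (adjusted p = 0.0454), and Prss8 passed as lower without replicate 1 of every group. Same-numbered libraries correlated at 0.0143 to 0.249, above 0.1 in 4 of 9 pairs, and other pairs at -0.212 to 0.134. The 3 pairs of replicate 1 were at 0.214 to 0.249, above every other pair, while control replicate 2 correlated better with clone 1 replicate 3 (0.0601) than with clone 1 replicate 2 (0.0475). Replicate 1 thus stood apart in all 3 groups, and the labels do not say that a number marks a shared source, so the block was not taken as the design. With a replicate block 2 members were higher, Spint1 among them (adjusted p = 0.0449). The causes were not tested.

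Requiring more than 2-fold (glmTreat) left 1828 genes lower and 1752 higher in clone 1, 1695 and 1693 in clone 2, and 535 and 651 in clone 2 against clone 1. At a minimum count of 50, 3 of 3 kallikreins tested were lower in each clone, and of 3 other membrane proteases tested 2 were lower and 1 higher in each. With no filter, 4 of 11 kallikreins were lower in clone 1 and 7 of 11 in clone 2. Depth limits the comparison of the clones for Spint1, Prss22, Tmprss2, Tmprss4 and Tmprss13. Levels per kb of St14, Tmprss2, Spint1 and Spint2 depended on the length used.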

Other observations

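Fxyd6, a regulator of the sodium pump, lies 21.9 kb from Tmprss13. It went from 0.687 CPM in the control to 0 counts in clone 1 and up to 45.2 CPM in clone 2, so the clones moved in opposite directions there.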
